A study of Gallus gallus with 8 samples.

Results

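Integrins, laminins and the adhesive glycoproteins of the extracellular matrix were followed in the developing chicken retina and in the cornea. The members were taken by gene symbol: symbols beginning ITGA or ITGB with a number, the laminin chains, nidogens, thrombospondins, tenascin C and R, fibulins, fibrillins, agrin, fibronectin, vitronectin, SPARC and TGFBI. Of 16700 rows in the expression table, 50 matched and 49 held reads. The 49 were 7 integrin alpha chains, 7 integrin beta chains, 4 other genes whose symbols begin in the same way, 12 laminin chains, 2 nidogens and agrin, 3 thrombospondins, 2 tenascins, 4 fibulins, 3 fibrillins and 4 single glycoproteins. The remaining match, ITGA2B, was at 0 in all 8 libraries, as were the 50 rows on either side of it in the table, so its 0 was not read as a measure of expression. Perlecan (HSPG2) and periostin (POSTN) matched no row and were not analysed here.

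Integrins are receptors made of 1 alpha and 1 beta chain that span the cell membrane and couple the extracellular matrix to the cytoskeleton. Laminins are trimers of an alpha, a beta and a gamma chain that polymerise into the sheet of a basement membrane, to which nidogens and agrin bind. In the eye such sheets include the inner limiting membrane between the retina and the vitreous, the membrane under the corneal epithelium and Descemet's membrane at the back of the cornea, while fibronectin, tenascins, thrombospondins, fibulins and fibrillins lie mostly in the matrix between and around cells.

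Polyadenylated RNA was sequenced from whole retina at embryonic day 8 (E8), E16 and E18 and from whole cornea at E18, with 2 libraries in each of the 4 groups. All embryos were Cobb/Hubbard F1 hybrids, for which no treatment or engineered allele is given. The retinal pigment epithelium had been peeled off, and no cell type was enriched, so fewer cells of a type and less RNA per cell cannot be told apart. The 2 libraries of a group were biological replicates, listed as separate chickens. Each p-value rests on the spread between replicates pooled over all 4 groups and moderated across genes, not on the 2 groups compared alone. Levels are normalized counts, that is, reads divided by the size factor of the library, and a fold change is a difference of log2(normalized count + 1), which understates the change of low genes. Differences were tested with limma over all 8 libraries, adjusted over the 13194 genes tested by Benjamini-Hochberg and called at an adjusted p under 0.05. Fold changes are given ± the standard error (SE) of that fit. Where leaving out a library ended a call or moved a called value by over 1.5 times, the left-out range is the span of the fold change over the 4 fits that each lack 1 library of the comparison. No transcript lengths were used, so levels are compared between groups. Where genes were ranked by level to choose those named, or said to lead or hold part of a sum, no correction for length was made.

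The libraries held 15662779 to 45670254 reads on genes, which puts the limit allowed by a count of 0, taken as 3 reads, at 0.0657 to 0.192 RPM, a read count scaled to a common library total. Markers of each tissue followed the labels. The summed level of the 5 photoreceptor markers with a row was 2654 and 2569 RPM in E18 retina, against 2.04 and 1.57 RPM in cornea, and that of 5 corneal epithelium markers was 4.68 and 4.86 RPM in E18 retina, against 11847 and 10395 RPM in cornea. Keratocyte markers, those of the cells of the corneal stroma, summed to 24.7 and 25.1 RPM in E18 retina, nearly all of it KERA, against 13631 and 13645 RPM in cornea. On chromosome Z, the sex chromosome that male birds carry in 2 copies, the median log2 fold change of 513 genes was -0.59 at E16 against E8 and -0.47 at E18 against E8, beside 0.04 and 0.03 over 9925 genes elsewhere. The members on that chromosome are ITGA1, ITGA2, THBS4 and FBN2, and the part of this shift in their values was not tested.

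Taken as a set, the members took a small share of retinal reads and a larger share of corneal reads. They held 0.315% and 0.351% of the reads on genes at E8, 0.267% and 0.253% at E16 and 0.265% and 0.250% at E18, and 1.54% and 1.31% in cornea. SPARC alone held much of the corneal share, which was 0.798% and 0.761% over the other 48 members, against 0.249% and 0.234% in E18 retina.

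At E16 against E8, 35 of the 49 members were called, 19 higher and 16 lower, which is 71.4% of members beside 64.4% of all genes tested (34.1% higher and 30.3% lower). At E18 against E8, 35 members were called as well, 17 higher and 18 lower, beside 66.4% of all genes (35.0% higher and 31.4% lower). Both shares lie near the background, and the median log2 fold changes of the members, -0.01 and 0.06, lie near those of all genes, 0.04 and 0.04. At E18 against E16, 10 members were called, 5 higher and 5 lower, or 20.4% of members beside 18.6% of all genes (10.7% higher and 7.87% lower). This last count depended on single libraries, with 0 members called by limma without E16 replicate 1 (15 at an unadjusted p under 0.05), 2 without E16 replicate 2, 1 without E18 replicate 1 and 4 without E18 replicate 2, while the calls over all genes then numbered 90 to 871, against 2450 with all libraries. The share of all genes at that unadjusted threshold was not computed. When the 4 libraries of the comparison were fitted alone, the count called was 20 of the 45 members then tested, or 44.4%. That stood beside 45.7% of the 12348 genes tested in that fit.

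The 2 libraries of each age did not overlap for 39 of 49 members at E16 against E8, beside 83.1% of all genes, for 33 at E18 against E16, beside 74.0%, and for 41 at E18 against E8, beside 83.9%. With a change of at least 2-fold required as well, 27 members (55.1%) were called at E16 against E8, beside 40.3% of all genes. At E18 against E16 there were 3 (6.12%), beside 6.16%, and at E18 against E8 25 (51%), beside 42.4%.

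The comparison of E18 retina with E18 cornea was different. There 47 of 49 members were called, 5 higher in retina and 42 lower in retina, which is 95.9% of members beside 71.4% of all genes (34.5% higher and 36.9% lower). The median log2 fold change of retina over cornea was -2.62 for the members and -0.06 for all genes. With the 41 members that had at least 10 reads in every library of both groups, the split was 5 higher, 34 lower and 2 not called. Their median log2 fold change was -2.295. The share of all genes called under that requirement was not computed. The other 8, among them FBN3, FBLN2, FBLN5, FBLN7, LAMB3, ITGB6 and ITGB1BP2, reached 10 reads in both libraries of cornea and not of E18 retina, so within this comparison they had enough reads in cornea only. Their calls are part of the 47 and of the other values given here for all members, and are not read as support. The 5 higher in retina were TNR, VTN, ITGB8, ITGA4 and LAMA1, and the 2 not called were TNC and ITGB1BP3. No setting or left-out library tried brought the count of members called under 46 except a requirement of a 2-fold change. Under that requirement it was 43 (87.8%), beside 49.8% of all genes. The libraries of the 2 tissues did not overlap for 48 members, beside 87.2% of all genes.

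**Figure D1:**
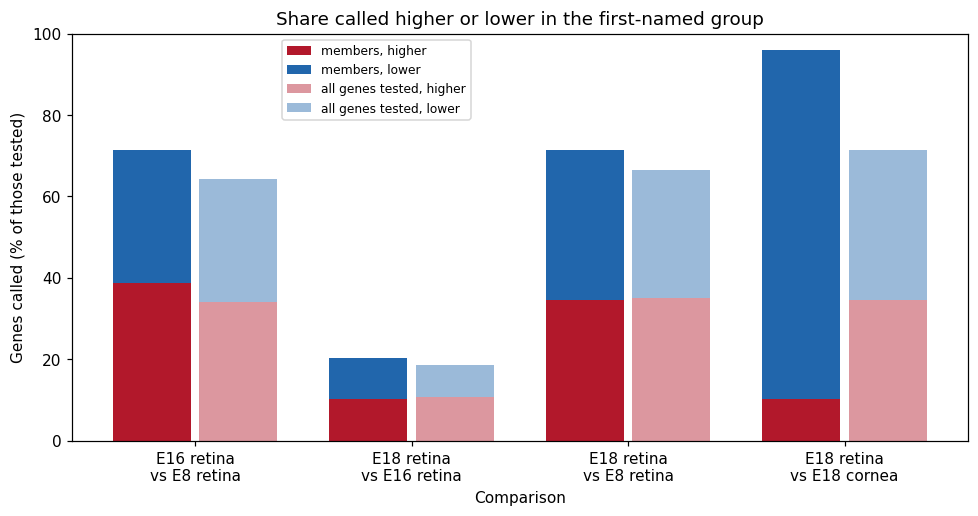
Share of genes called higher (red) and lower (blue) in the first-named group of each of the 4 comparisons, in percent, with the 49 members (dark bars) beside the 13194 genes tested (pale bars). In the 3 comparisons between retinal ages the members' bars lie near those of all genes, whereas in E18 retina against E18 cornea 42 of 49 members were lower in retina.

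Among the 4 groups, 35 of the 49 members had their highest mean in cornea, 8 in E8 retina, 4 in E18 retina and 2 in E16 retina. The same count over all genes tested gave 35.4% with their highest mean in cornea, 30.1% in E8 retina, 21.1% in E18 retina and 13.4% in E16 retina. Within the retina, 20 members were highest at E8, 14 at E16 and 15 at E18, near the shares of all genes, which were 42.4% at E8, 25.0% at E16 and 32.5% at E18.

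**Figure D2:**
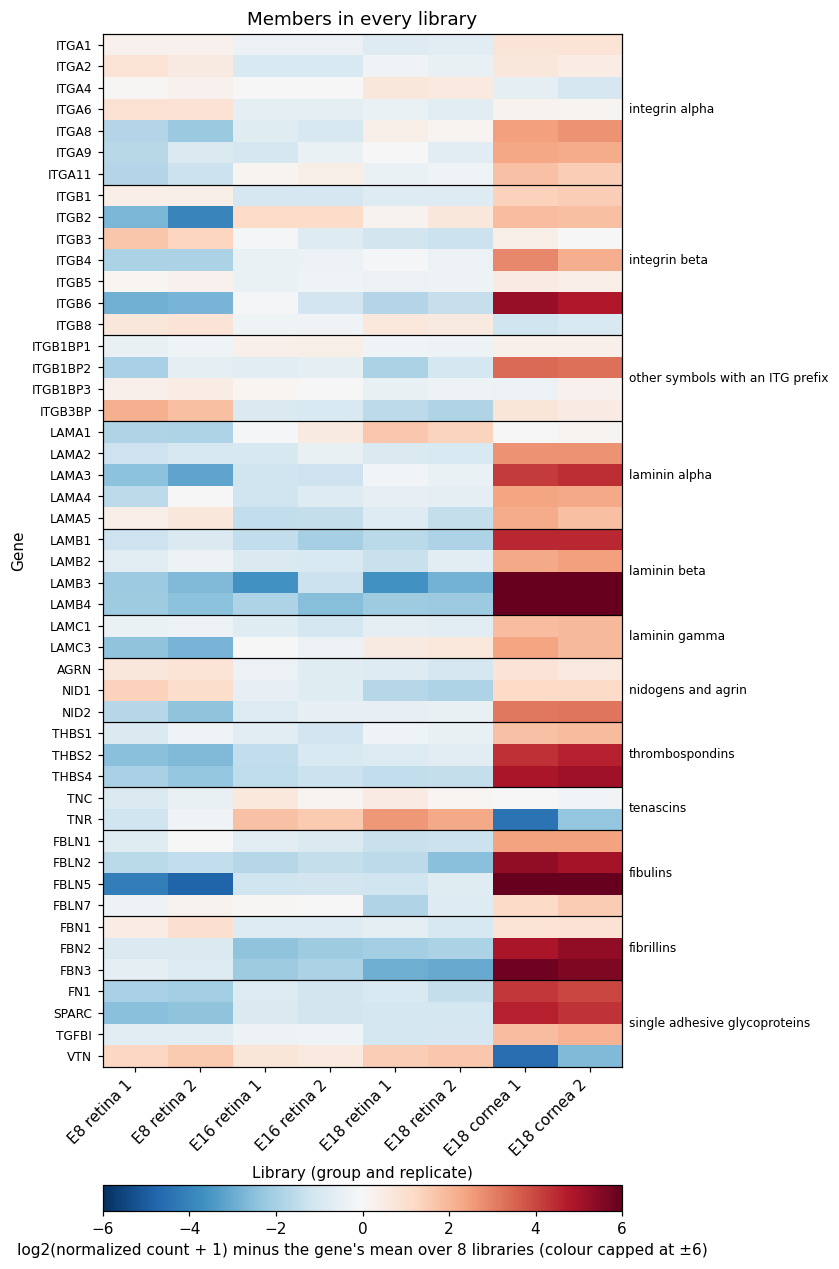
Level of 48 of the 49 members in each of the 8 libraries (colour, log2 of the normalized count + 1 minus the mean of the gene over the 8 libraries), with the members grouped by family and the libraries in the order E8, E16 and E18 retina and E18 cornea. The 2 libraries of most groups share a colour, and cornea is the highest group for most members.

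Of the 7 integrin alpha chains, some were lower in the older retina and some higher. ITGA6, the alpha chain of laminin receptors, had 5663 and 5441 normalized counts at E8, 1944 and 1991 at E16 and 2234 and 1936 at E18, and 3481 and 3304 in cornea. It fell by E16, with a log2 fold change of -1.50 ± 0.11 (limma adjusted p = 6.9e-06), and at E18 it was not distinguishable from E16 (0.08, 95% interval -0.17 to 0.33). ITGA1 and ITGA2, the alpha chains of collagen receptors, lie near each other on chromosome Z with 1 protein-coding gene between them. ITGA1 had 1793 and 1801 normalized counts at E8, 1198 and 1192 at E16 and 873 and 984 at E18, and 2625 and 2647 in cornea. Its log2 fold change at E16 against E8 was -0.59 ± 0.11 (limma adjusted p = 0.00174), beside a chromosome Z median of -0.59. At E18 against E8 it was -0.95 ± 0.11 (limma adjusted p = 9.1e-05), beside a chromosome Z median of -0.47. The part of the chromosome Z shift in these values was not tested. ITGA2 had 1597 and 1303 normalized counts at E8, 471 and 479 at E16 and 768 and 662 at E18, and 1457 and 1210.0 in cornea. Its E16 libraries lay below all the others, with log2 fold changes of -1.60 ± 0.16 (limma adjusted p = 4.2e-05) at E16 against E8 and 0.59 ± 0.16 (limma adjusted p = 0.0388) at E18 against E16, the second of which was lost on leaving out any 1 of its 4 libraries (left-out range 0.48 to 0.69).

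ITGA11, another collagen-binding chain, went the other way. It had 257 and 354 normalized counts at E8, 955 and 1082 at E16 and 645 and 726 at E18, and 2881 and 2377 in cornea, a log2 fold change of 1.75 ± 0.19 (limma adjusted p = 5.8e-05) at E16 against E8, and its E18 libraries lay between those of E8 and E16. ITGA8, which pairs with the beta 1 chain and binds nephronectin and fibronectin, had 110.2 and 78.4 normalized counts at E8, 227 and 193 at E16 and 481 and 425 at E18, and 2099 and 2404 in cornea. Its groups did not overlap at any step, and it rose at E16 against E8 (log2 fold change 1.16 ± 0.21), at E18 against E16 (1.11 ± 0.21) and at E18 against E8 (2.27 ± 0.21, limma adjusted p = 2.4e-05). The step from E16 to E18 was lost on leaving out any 1 of its 4 libraries (left-out range 0.99 to 1.22). ITGA9, a chain that binds tenascin C, had 55.7 and 95.1 normalized counts at E8, 87.2 and 133 at E16 and 182 and 109.8 at E18, and 885 and 840.2 in cornea, with overlapping libraries at E16 and E18. Its rise at E18 against E8 (0.95 ± 0.35, limma adjusted p = 0.0413) was lost without E8 replicate 1 or E18 replicate 1, with a left-out range of 0.57 to 1.33. It was also lost with a replicate block, without the mean-variance trend and with the 4 libraries compared fitted alone (limma adjusted p = 0.0530, 0.0575 and 0.0668).

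Against cornea, 6 of the 7 alpha chains were lower in E18 retina. The exception was ITGA4, a chain best known from leukocytes and neural crest cells that binds fibronectin and VCAM1, which had 400.2 and 449 normalized counts at E8, 364 and 384 at E16 and 605 and 569 at E18, and 247 and 183 in cornea. It was 2.75-fold higher in E18 retina than in cornea (log2 fold change 1.46 ± 0.19, limma adjusted p = 1.5e-04). Between E18 and E8 retina its libraries did not overlap, but the difference, 0.47, was not called (limma adjusted p = 0.0607). ITGA8 was 4.96-fold lower in retina, ITGA9 6.07-fold and ITGA11 3.82-fold, while ITGA1, ITGA2 and ITGA6 differed less, with log2 fold changes of -1.51, -0.90 and -0.71. ITGAV, the alpha chain that pairs with beta 3, 5, 6 and 8, is not a member because its symbol has no number, and was looked at after the members were seen. It had 3728 and 4218 normalized counts at E8, 1793 and 1658 at E16 and 2313 and 1969 at E18, and 1858 and 1467 in cornea.

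The beta 1 chain, ITGB1, which pairs with most of these alpha chains, had 6389.9 and 6209 normalized counts at E8, 2411 and 2450.3 at E16 and 2888 and 2832 at E18, and 12551 and 13613 in cornea. It fell at E16 against E8 with a log2 fold change of -1.37 ± 0.10 (limma adjusted p = 5.9e-06), as ITGA6 did, and was 4.57-fold lower in E18 retina than in cornea. ITGB5, a vitronectin receptor chain, had 6957 and 7589 normalized counts at E8, 4828 and 5236 at E16 and 4988 and 5172 at E18, and 8973 and 8214 in cornea. Its change between ages was smaller, -0.53 ± 0.11 (limma adjusted p = 0.00243) at E16 against E8 and -0.52 ± 0.11 (limma adjusted p = 0.00265) at E18 against E8. ITGB3 is another vitronectin receptor chain, which thrombocytes and osteoclasts also carry. It had 341 and 262 normalized counts at E8, 101 and 62.1 at E16, 48.9 and 43.2 at E18, and 138 and 104 in cornea. All 4 later retinal libraries lay below both E8 libraries, and the log2 fold change was -1.90 ± 0.32 (limma adjusted p = 7.7e-04) at E16 against E8 and -2.68 ± 0.32 (limma adjusted p = 9.1e-05) at E18 against E8. The thrombocyte markers, a list that includes THBS1 and ITGA2B, summed to 24.5 and 32.2 RPM at E8, 46.6 and 30.5 at E16 and 40.9 and 38.2 at E18. THBS1, itself a member, held 13.3 and 20.2 RPM of that sum at E8 and 21.4 and 18.7 at E18. The part of thrombocytes in the ITGB3 values was not tested.

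ITGB8, a chain known in neural tissue for the activation of latent TGF-beta, was lower at E16 than at either other age. It had 1506 and 1566 normalized counts at E8, 778 and 809.7 at E16 and 1429.6 and 1336 at E18, and 402 and 493 in cornea. The E16 libraries lay below all other retinal libraries, with log2 fold changes of -0.95 ± 0.14 (limma adjusted p = 3.9e-04) at E16 against E8 and 0.80 ± 0.14 (limma adjusted p = 0.00903) at E18 against E16, and the difference of E18 from E8 was -0.15 (95% interval -0.47 to 0.17). Of the 4 fits with a library left out, the second step was called without E18 replicate 2 and in no other (left-out range 0.75 to 0.85). ITGB8 was 3.10-fold higher in E18 retina than in cornea (log2 fold change 1.63 ± 0.14, limma adjusted p = 8.5e-06), and with ITGA4 it was 1 of the 2 integrin chains of 14 to be so.

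ITGB4, the chain that pairs with alpha 6 in the hemidesmosomes of epithelia, rose in the retina. It had 288 and 282 normalized counts at E8, 804 and 835 at E16 and 974 and 849 at E18, and 7827 and 4783 in cornea, a log2 fold change of 1.52 ± 0.21 (limma adjusted p = 2.8e-04) at E16 against E8. E18 retina was 6.73-fold below cornea. ITGB6, an epithelial chain, was near the limit of detection in retina, with 3 and 2 reads at E8, 17 and 10 at E16 and 4 and 9 at E18, and 417 and 454 in cornea. The pooled reads at E16 were 6.77 times those at E8 after scaling (95% counting interval 2.57 to 22.5), and those at E18 3.35 times (1.12 to 11.99). The call at E18 against E8 was lost on leaving out any 1 library (left-out range 1.07 to 1.45).

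ITGB2, the beta chain of leukocyte integrins, had 8.20 and 2.94 normalized counts at E8, 130.3 and 132 at E16 and 71.4 and 96.9 at E18, and 219.5 and 214 in cornea. All libraries at E16 and E18 lay above both at E8, and the log2 fold change was 4.46 ± 0.41 (limma adjusted p = 2.4e-05) at E16 against E8 (left-out range 3.85 to 5.07) and 3.81 ± 0.41 (limma adjusted p = 5.1e-05) at E18 against E8 (3.19 to 4.42). At E8 it had 14 and 3 reads, so it reached 10 reads in both libraries at the later ages only, and the size of the change is uncertain. The 6 markers of leukocytes and microglia with a row, of 9 listed, summed to 8.19 and 5.79 RPM at E8, 49.0 and 49.1 RPM at E16 and 51.3 and 49.0 RPM at E18, and 80.3 and 71.3 RPM in cornea. CSF1R and LCP1 led that sum in the later retina. PTPRC, the gene of the leukocyte antigen CD45, went the other way, with 1.97 and 1.67 RPM at E18, against 4.58 and 2.36 RPM at E8. Their part in the ITGB2 values was not tested. ITGB2 was lower in E18 retina than in cornea (-1.37 ± 0.41, limma adjusted p = 0.0144), a call that was lost without E18 retina replicate 1 and without either cornea library (left-out range -1.59 to -1.15).

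**Figure D3:**
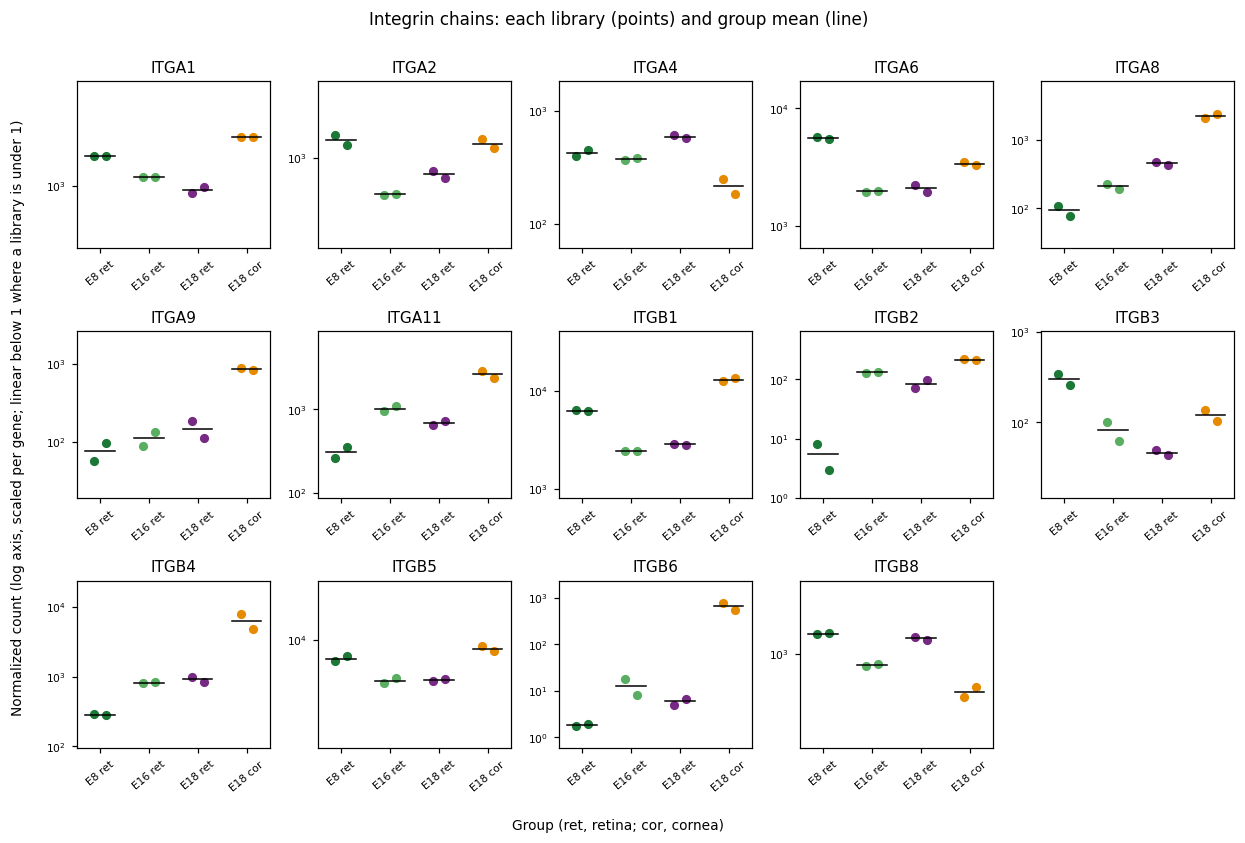
Normalized counts of the 14 integrin chains in each library (points, log axis scaled per gene) with the group mean (line), for E8, E16 and E18 retina and E18 cornea. ITGA6, ITGB1 and ITGB3 are highest at E8 among the retinal ages, ITGA8 and ITGB4 are higher at E16 and E18 than at E8, and ITGA4 and ITGB8 are the 2 chains higher in E18 retina than in cornea.

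Over the 14 integrin chains, 5 were higher and 7 lower at E16 against E8, 3 were higher and 0 lower at E18 against E16, 6 were higher and 6 lower at E18 against E8, and 2 were higher and 12 lower in E18 retina against E18 cornea. For all genes the shares were 34.1% higher and 30.3% lower, 10.7% and 7.87%, 35.0% and 31.4%, and 34.5% and 36.9%, in the same order of comparisons. The 3 chains called at E18 against E16 were ITGA2, ITGA8 and ITGB8.

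Of the 4 other genes with the prefix, none encodes an integrin. ITGB3BP, listed by RefSeq also as the centromere protein CENP-R, had 1127 and 908 normalized counts at E8, 138 and 135 at E16 and 86.5 and 71.2 at E18, and 419 and 361 in cornea. Its log2 fold change was -2.88 ± 0.21 (limma adjusted p = 6.6e-06) at E16 against E8 and -3.67 ± 0.21 (limma adjusted p = 1.3e-06) at E18 against E8, the largest falls among members with at least 10 RPM in the higher group. Of the retinal precursor markers, the proliferation gene MKI67 had 9.96 and 8.41 RPM at E18, against 839 and 619 RPM at E8, and TOP2A had 12.2 and 9.995 RPM at E18, against 1249 and 1082 RPM at E8. SFRP1, on the same list, went the other way, with 983 and 1055 RPM at E18, against 366 and 362 RPM at E8. Their part in the ITGB3BP values was not tested. ITGB1BP1, a cytoplasmic protein that binds the tail of beta 1, was highest at E16 in the retina, with 618 and 709.5 normalized counts at E8, 1048 and 1071 at E16 and 694 and 682 at E18, and 1035 and 1038 in cornea. Its log2 fold changes were 0.68 ± 0.13 (limma adjusted p = 0.0018) at E16 against E8 and -0.62 ± 0.13 (limma adjusted p = 0.016) at E18 against E16, the second of which was lost on leaving out any 1 library (left-out range -0.64 to -0.61). ITGB1BP3, an older human symbol of the nicotinamide riboside kinase NMRK2, had 22220.4 and 23926 normalized counts at E8, 19418 and 17393 at E16 and 13038 and 14244 at E18, and 13929 and 21355 in cornea. It fell by E18 against E8 (-0.76 ± 0.19, limma adjusted p = 0.00689) and was not called against cornea (-0.34, 95% interval -0.77 to 0.09), where its 2 libraries differed, although it was called without cornea replicate 1 (-0.65). ITGB1BP2, the muscle protein melusin, had 2 and 5 reads at E8, 4 and 6 at E16 and 1 and 4 at E18, and 47 and 66 in cornea. Skeletal muscle markers summed to 5.57 and 6.53 RPM in E18 retina, against 263 and 203 RPM in cornea, and their part in the corneal reads was not tested.

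Among the laminin alpha chains, LAMA5 was lower and LAMA1 and LAMA3 were higher in the older retina. LAMA5, the alpha chain of most adult basement membranes, had 2232 and 2657 normalized counts at E8, 605 and 627 at E16 and 971 and 613 at E18, and 7749.6 and 5733 in cornea. It fell with a log2 fold change of -1.98 ± 0.23 (limma adjusted p = 8.6e-05) at E16 against E8 and -1.66 ± 0.23 (limma adjusted p = 2.2e-04) at E18 against E8. LAMA1, the alpha chain of the first laminin of the embryo, had 233 and 221 normalized counts at E8, 775 and 1201 at E16 and 2503 and 2076 at E18, and 836 and 918 in cornea. It rose at each step, by 2.08 ± 0.21 (limma adjusted p = 4.1e-05) at E16 against E8 and 1.24 ± 0.21 (limma adjusted p = 0.00793) at E18 against E16, and E18 retina lay above E8 retina by 3.32 ± 0.21 (limma adjusted p = 2.3e-06). The step from E16 to E18 was called without E16 replicate 2 and without E18 replicate 2, and not without the other libraries (left-out range 0.92 to 1.56). LAMA1 was also the 1 laminin chain of 12 that was higher in E18 retina than in cornea, 2.60-fold (1.38 ± 0.21, limma adjusted p = 3.3e-04).

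LAMA3, the alpha chain of the laminin that anchors epithelia to their basement membrane, had 86.1 and 53.9 normalized counts at E8, 211 and 203 at E16 and 427 and 373 at E18, and 8999 and 10601 in cornea. In retina its groups did not overlap, and it was 5.79-fold higher at E18 than at E8 (log2 fold change 2.53 ± 0.23, limma adjusted p = 1.9e-05), yet E18 retina remained 24.4-fold below cornea. Its step from E16 to E18, 0.94 ± 0.23 (limma adjusted p = 0.0257), was lost on leaving out any 1 library (left-out range 0.85 to 1.04). LAMA2 and LAMA4, the chains of muscle and of vessel basement membranes, were not called between retinal ages. LAMA2 had 247 and 304 normalized counts at E8, 299 and 431 at E16 and 318 and 307 at E18, and 3854 and 3804 in cornea. LAMA4 had 172 and 505 normalized counts at E8, 222 and 303 at E16 and 358 and 347 at E18, and 2612 and 2444 in cornea, and its 2 E8 libraries differed by more than 2-fold. For E16 against E8, the log2 fold change without E8 replicate 1 was -0.96 (limma adjusted p = 0.0074) and without E8 replicate 2 it was 0.59 (limma adjusted p = 0.0488), so no direction was read. At E18 against E8 it was called without E8 replicate 2 (1.03) and in no other fit. Both chains were lower in E18 retina than in cornea, with log2 fold changes of -3.61 ± 0.20 (limma adjusted p = 6.2e-07) for LAMA2 and -2.84 ± 0.42 (limma adjusted p = 2.6e-04) for LAMA4.

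Among the laminin beta chains, LAMB3 and LAMB4 had the largest differences between the tissues. LAMB3, a beta chain of the laminin that anchors epithelia, was near or under the limit of detection in all 6 retinal libraries. It had 3 and 1 reads at E8, 0 and 5 at E16 and 0 and 1 at E18, and 2221 and 2495 in cornea. Pooled over both libraries, it stood at 1 read in E18 retina, against 4716 in cornea, a ratio of cornea over retina after scaling of 7368 (95% counting interval 1322 to 291100). It passed the filter on low counts through cornea alone.

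LAMB4 and LAMB1 are neighbours on chromosome 1. LAMB4 had 19.9 and 15.7 normalized counts at E8, 24.2 and 14.7 at E16 and 20.05 and 18.9 at E18, and 10099.8 and 8255 in cornea. The retinal ages overlapped, and E18 retina was 446-fold below cornea (log2 fold change -8.80 ± 0.31, limma adjusted p = 7.0e-08). LAMB1, the beta chain of many embryonic laminins, had 176 and 233 normalized counts at E8, 152 and 105 at E16 and 135 and 117 at E18, and 9655 and 9564 in cornea. It was 75.7-fold lower in E18 retina than in cornea (-6.24 ± 0.23, limma adjusted p = 8.2e-08). Within the retina it was lower at E16 and E18 than at E8 (-0.68 and -0.68), calls that were lost without E8 replicate 2 or E16 replicate 2 (left-out range -0.95 to -0.41), and without E8 replicate 2, E18 replicate 1 or E18 replicate 2 (-0.88 to -0.48). LAMB2, a beta chain of mature basement membranes and synapses, was not called between ages and was 10.2-fold lower in E18 retina than in cornea, with 323 and 426 normalized counts at E8, 290.1 and 279 at E16 and 209 and 331 at E18, and 2519.9 and 2855 in cornea.

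LAMC1, the gamma chain of most laminins, had 633 and 649 normalized counts at E8, 496 and 395 at E16 and 560.1 and 541 at E18, and 2974 and 3199.9 in cornea. It was lower at E16 than at E8 (-0.53 ± 0.15, limma adjusted p = 0.012), a call lost without E16 replicate 2 (left-out range -0.70 to -0.37), and E18 did not differ from E8 beyond the error (-0.22, 95% interval -0.56 to 0.12). LAMC3, a gamma chain that in mouse and human is found in retina and brain, had 48.6 and 37.2 normalized counts at E8, 266 and 203 at E16 and 383 and 411 at E18, and 1358 and 1027 in cornea. It rose by 2.42 ± 0.24 (limma adjusted p = 3.9e-05) at E16 against E8, and E18 retina was 9.14-fold above E8 retina (limma adjusted p = 6.4e-06). It was 2.97-fold below cornea.

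**Figure D4:**
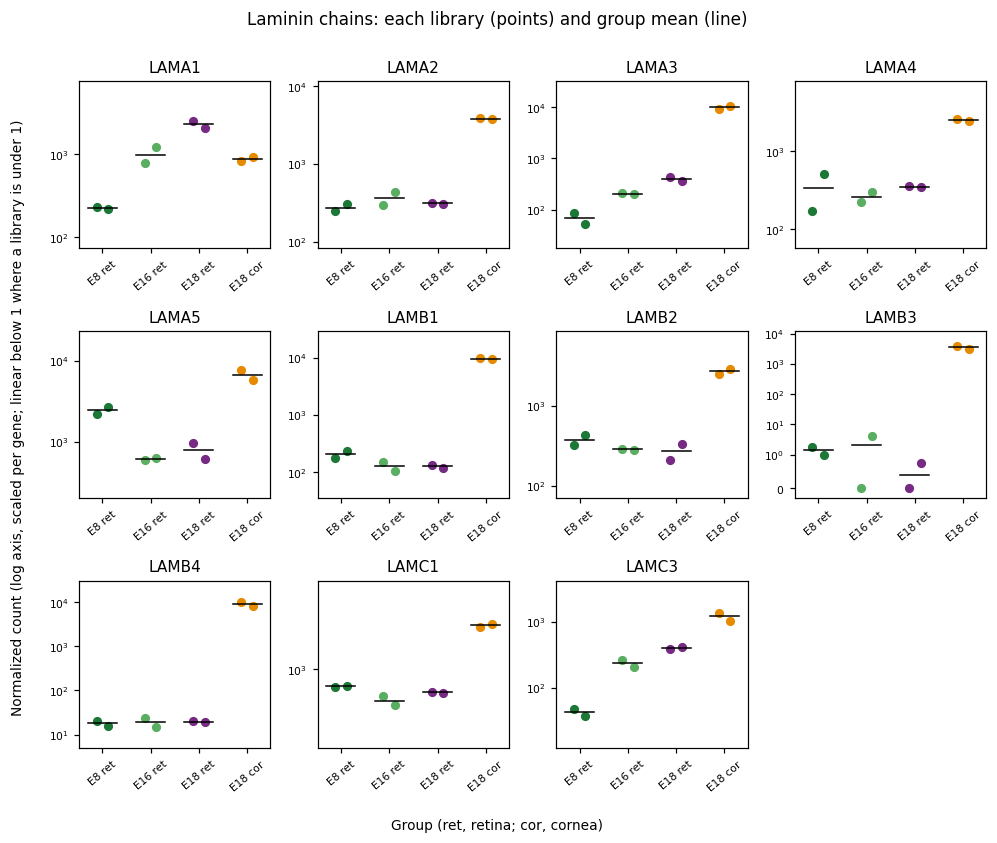
Normalized counts of 11 laminin chains in each library (points, log axis scaled per gene, linear below 1 where a library is under 1) with the group mean (line). LAMA1, LAMA3 and LAMC3 are higher at E18 than at E8, LAMA5 is lower, and LAMB3 and LAMB4 are near the bottom in all 6 retinal libraries and high in cornea.

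Over the 12 laminin chains, 4 were higher and 3 lower at E16 against E8, 2 were higher and 0 lower at E18 against E16, 3 were higher and 2 lower at E18 against E8, and 1 was higher and 11 lower in E18 retina against E18 cornea. These counts are to be read against the shares of all genes given with the integrin chains.

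The nidogens, which link laminin to type IV collagen, went in opposite directions. NID1 had 3312 and 2587 normalized counts at E8, 882 and 767 at E16 and 383 and 349.8 at E18, and 2835 and 2818 in cornea. Each age lay below the one before, with log2 fold changes of -1.83 ± 0.15 (limma adjusted p = 1.3e-05) at E16 against E8 and -1.17 ± 0.15 (limma adjusted p = 0.00416) at E18 against E16, and the second step was lost without E16 replicate 1 (left-out range -1.27 to -1.06). E18 retina was 7.97-fold below E8 retina and 7.70-fold below cornea. NID2 had 77.9 and 47.0 normalized counts at E8, 147 and 184 at E16 and 185 and 189 at E18, and 2286 and 2399 in cornea. It was 3.06-fold higher at E18 than at E8 (1.61 ± 0.26, limma adjusted p = 6.0e-04), and 12.4-fold lower in E18 retina than in cornea. Agrin (AGRN), a heparan sulfate proteoglycan that binds laminin and dystroglycan, had 9783 and 10761 normalized counts at E8, 4725 and 3712 at E16 and 3573 and 3023 at E18, and 10561 and 9316 in cornea. Its log2 fold change was -1.29 ± 0.15 (limma adjusted p = 9.2e-05) at E16 against E8 and -1.64 ± 0.15 (limma adjusted p = 2.0e-05) at E18 against E8, and the ranges of E8 retina and cornea overlapped.

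The thrombospondins, secreted oligomers that bind many matrix proteins and cell receptors, were all lower in E18 retina than in cornea. THBS4, on chromosome Z, had 320.5 and 244 normalized counts at E8, 429.9 and 498 at E16 and 445 and 463 at E18, and 36999 and 41594 in cornea, so that retina was 86.2-fold below cornea. Within the retina it was higher at E16 than at E8 (0.72 ± 0.16, limma adjusted p = 0.00371), against the direction of the chromosome Z median. THBS2, an inhibitor of angiogenesis, had 90.2 and 82.3 normalized counts at E8, 189 and 281 at E16 and 298 and 330.1 at E18, and 11011 and 13167 in cornea. It rose in the retina, 3.61-fold at E18 against E8 (1.85 ± 0.21, limma adjusted p = 7.5e-05), and was 38.3-fold lower in E18 retina than in cornea. THBS1, its close relative, was not called between ages, with 357 and 537 normalized counts at E8, 409 and 294 at E16 and 544 and 475 at E18, and 2193 and 2405 in cornea.

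Both tenascins were higher in the older retina. Tenascin R (TNR), a matrix protein of the central nervous system found around neurons and made by oligodendrocytes and some neurons, had 746 and 1476 normalized counts at E8, 5769 and 5019 at E16 and 10312 and 8188 at E18, and 79.3 and 338 in cornea. All 4 later libraries lay above both E8 libraries, which differed almost 2-fold from each other. The log2 fold change was 2.36 ± 0.57 (limma adjusted p = 0.00628) at E16 against E8, not called without E8 replicate 1 (1.87, limma adjusted p = 0.0639), and 3.13 ± 0.57 (limma adjusted p = 0.00126) at E18 against E8. TNR was higher in E18 retina than in cornea (5.80 ± 0.57 (limma adjusted p = 2.1e-05), left-out range 4.76 to 6.84), where the 2 libraries differed by more than 2-fold, so the size of the difference rests on which of them is used. Markers of oligodendrocytes and Schwann cells, led by MBP, summed to 12.1 and 12.9 RPM at E8 and 121 and 180 RPM at E16. Their sums were 555 and 514 RPM at E18 and 78.9 and 243 RPM in cornea. The 2 cornea libraries had 50.8 and 199 RPM of MBP, whereas SOX10, on the same list, had 18.8 and 13.7 RPM. The part of these markers in the TNR values was not tested. Tenascin C (TNC), a glycoprotein of embryonic and glial matrix, had 908 and 1207 normalized counts at E8, 2509 and 1863 at E16 and 2320.4 and 1803 at E18, and 1651 and 1484 in cornea. It rose by 1.05 ± 0.20 (limma adjusted p = 0.00179) at E16 against E8, and E18 retina was not called against cornea (0.39, 95% interval -0.07 to 0.85) although the libraries did not overlap.

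Of the fibulins, which bind elastic fibres and basement membranes, FBLN1 alone had at least 10 reads in every library of E18 retina and cornea. FBLN2, FBLN5 and FBLN7 reached 10 reads in both libraries of cornea only. Their calls against cornea are not read as support. FBLN5, needed for elastic fibre assembly, had 1 and 0 reads at E8, 11 and 15 at E16 and 9 and 21 at E18, and 1622 and 2088 in cornea. After scaling, the pooled reads at E16 were 32.6 times those at E8 (95% counting interval 5.36 to 1336) and those at E18 38.6 times (6.42 to 1575). Its E18 retinal reads lay far below those in cornea, the group of the 2 with at least 10 reads in both libraries. FBLN2 had 13.5 and 14.7 normalized counts at E8, 12.6 and 15.5 at E16 and 13.8 and 6.81 at E18, and 1780.2 and 1415 in cornea, with overlapping ages, and it too had at least 10 reads in both libraries of cornea and not of E18 retina. FBLN1 had 369.7 and 599.8 normalized counts at E8, 388 and 337 at E16 and 243 and 248 at E18, and 3199 and 3282 in cornea. It was lower at E18 than at E8 (-0.94 ± 0.22, limma adjusted p = 0.00504), and 13.2-fold lower in E18 retina than in cornea. FBLN7 had 16.4 and 23.5 normalized counts at E8, 21.0 and 19.6 at E16 and 5.01 and 11.4 at E18, and 46.1 and 59.0 in cornea. FBLN7 was lower at E18 than at E8 (-1.26 ± 0.43, limma adjusted p = 0.0287). That call was lost without E8 replicate 2 and without E18 replicate 1 (left-out range -1.78 to -0.74). It was also lost with DESeq2 and with the 4 libraries compared fitted alone. FBLN7 had 4 and 15 reads in E18 retina, so of these ages E8 alone had at least 10 reads in both libraries.

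Of the 3 fibrillins, the building blocks of microfibrils, FBN1 and FBN2 were lower in the older retina and lower in E18 retina than in cornea. FBN1 had 8786 and 12742 normalized counts at E8, 3879 and 3762 at E16 and 4403 and 3378 at E18, and 11389 and 11934 in cornea, a log2 fold change of -1.46 ± 0.19 (limma adjusted p = 1.5e-04) at E18 against E8, and the ranges of E8 retina and cornea overlapped. FBN2, on chromosome Z, had 131 and 132 normalized counts at E8, 44.1 and 54.7 at E16 and 57.6 and 62.8 at E18, and 7157 and 9589 in cornea. It fell, with a log2 fold change of -1.40 ± 0.22 (limma adjusted p = 6.0e-04) at E16 against E8, and E18 retina was 135-fold below cornea. FBN3 had 60.3 and 51.9 normalized counts at E8, 19.97 and 23.7 at E16 and 11.3 and 10.6 at E18, and 5375 and 4503 in cornea, so that each age lay below the one before, with a log2 fold change of -2.26 ± 0.26 (limma adjusted p = 7.2e-05) at E18 against E8. Its step from E16 to E18 was called (-0.93) but lost on leaving out any 1 library (left-out range -1.05 to -0.81). FBN3 had 9 and 14 reads in E18 retina. In the comparisons of E18 retina with cornea, E8 and E16, the other group alone had at least 10 reads in both libraries. The FBN3 calls in these comparisons are not read as support.

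Among the single glycoproteins, SPARC and vitronectin differed in opposite directions between the tissues. SPARC, a collagen-binding protein of remodelling matrix, had 1459 and 1599 normalized counts at E8, 4596 and 3968 at E16 and 4036 and 4015 at E18, and 215186 and 171249 in cornea. It rose in the retina at E16 against E8 (1.48 ± 0.14, limma adjusted p = 2.7e-05), and E18 retina was 47.7-fold below cornea (-5.58 ± 0.14, limma adjusted p = 1.9e-08). Vitronectin (VTN), a plasma and matrix protein bound by the ITGB3 and ITGB5 integrins, had 3099 and 3879 normalized counts at E8, 2133 and 1923 at E16 and 3641 and 3979.6 at E18, and 53.5 and 203 in cornea. It was higher in E18 retina than in cornea (5.18 ± 0.48 (limma adjusted p = 1.4e-05), left-out range 4.22 to 6.13), and all 6 retinal libraries lay above both corneal ones, which differed from each other by more than 2-fold. Its E16 libraries lay below those of E8 and E18. Neither step was called with the spread shared by all 8 libraries (limma adjusted p = 0.188 at E16 against E8 and 0.216 at E18 against E16), and both were called when the 4 libraries compared were fitted alone (limma adjusted p = 0.00341 and 0.000534).

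Fibronectin (FN1), the main ligand of several beta 1 integrins, had 111 and 99.0 normalized counts at E8, 241 and 201 at E16 and 227 and 157 at E18, and 8209 and 6975 in cornea. It was higher at E18 than at E8 (0.85 ± 0.22, limma adjusted p = 0.00785), a call lost without E18 replicate 1 (left-out range 0.58 to 1.11), and 39.8-fold lower in E18 retina than in cornea. TGFBI, an integrin-binding protein that is abundant in the corneal stroma of humans, had 1134 and 1107 normalized counts at E8, 1423 and 1442 at E16 and 827 and 856 at E18, and 6333 and 7276 in cornea. It was a little higher at E16 than at E8 (0.35 ± 0.11, limma adjusted p = 0.0232) and lower at E18 than at E16 (-0.77 ± 0.11, limma adjusted p = 0.00559), the first of which was kept only without E8 replicate 1 (left-out range 0.34 to 0.37) and the second only without E18 replicate 2 (-0.79 to -0.74). E18 retina was 8.06-fold below cornea.

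**Figure D5:**
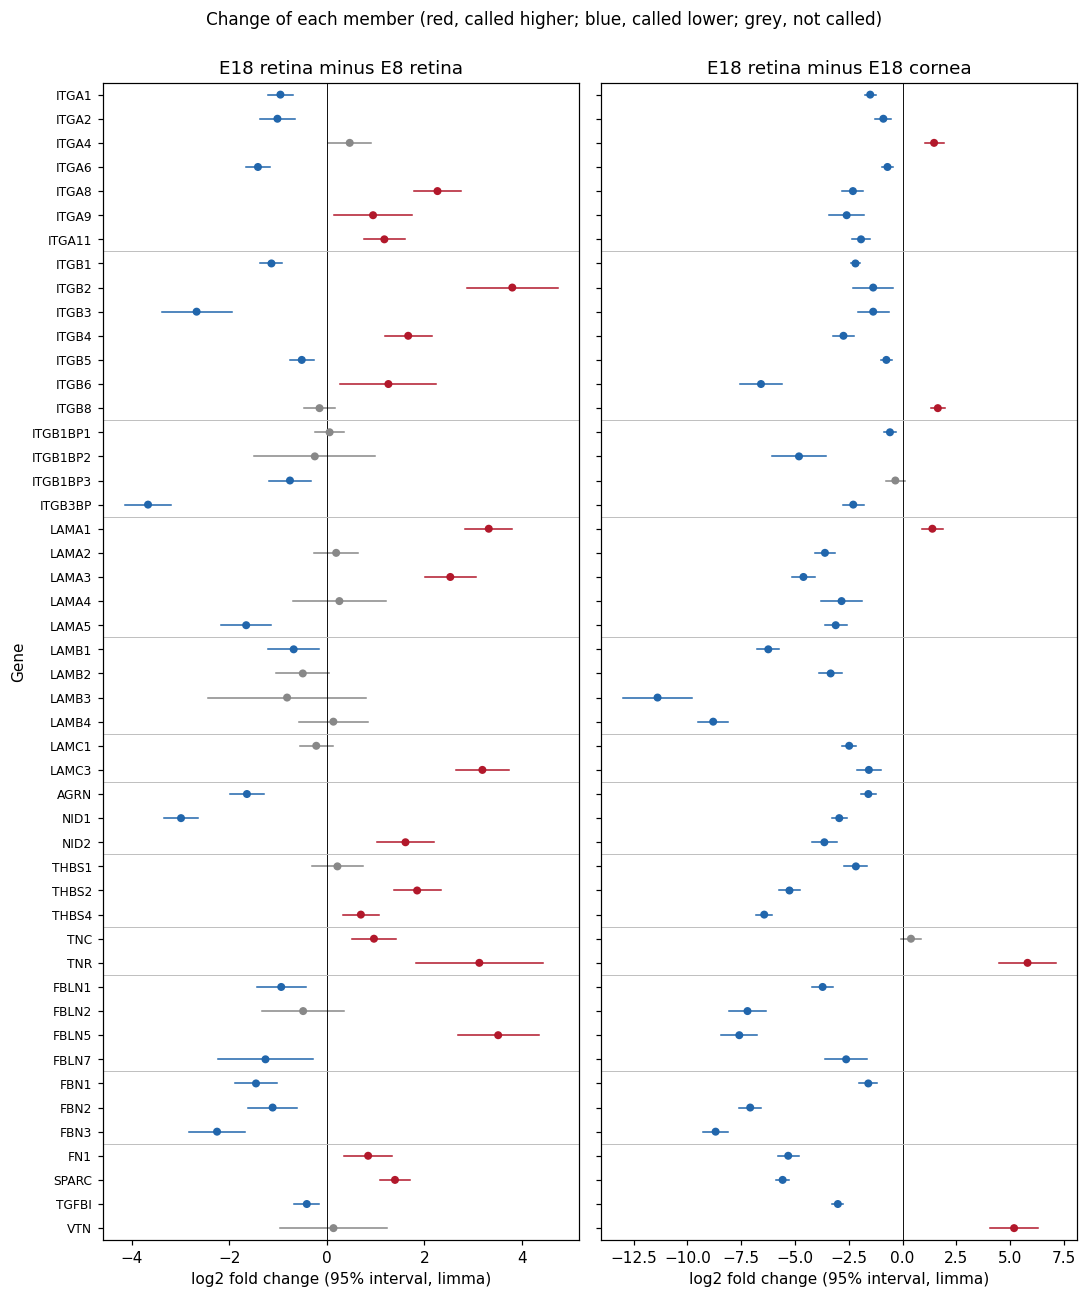
Log2 fold change of 48 of the 49 members (points, with 95% intervals from limma; red, called higher; blue, called lower; grey, not called) in E18 retina against E8 retina (left) and in E18 retina against E18 cornea (right). Of all 49 members, 17 were higher and 18 lower between the ages, and 5 were higher and 42 lower in retina between the tissues.

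Genes that work with the members were read from 3 lists, whose counts are to be read against all genes tested, of which 64.4% were called at E16 against E8, 18.6% at E18 against E16, 66.4% at E18 against E8 (median log2 fold change 0.04) and 71.4% in E18 retina against cornea (median -0.06). In the list of integrin adhesion machinery, the cytoplasmic proteins that join integrins to actin and signalling, 22 genes were tested, of which 5 were higher, 8 lower and 9 not called at E18 against E8 retina (median log2 fold change -0.22), and 6 were higher, 11 lower and 5 not called in E18 retina against cornea (median -0.22). At E16 against E8 2 were higher, 6 lower and 14 not called, and at E18 against E16 3 were higher, 2 lower and 17 not called. VCL, which encodes vinculin, had 227 and 217 normalized counts at E18, against 724 and 604 at E8 (log2 fold change -1.57). PTK2, the focal adhesion kinase gene, fell as well (-1.16), as did the kindlin FERMT1 (-1.04). PARVG, a parvin of blood cells, had 209 and 220 normalized counts at E18, against 12.3 and 26.5 at E8 (3.50). The rises of PARVA (0.91) and the talin TLN2 (0.89) were smaller. Against cornea, TLN2 (2.83), the kinase FYN (1.34) and PTK2 (1.24) were higher in E18 retina, and FERMT1 (-4.74), PTK2B (-4.03) and VCL (-3.30) were lower.

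The list of matrix receptors other than integrins, which holds syndecans, glypicans and the dystrophin-glycoprotein complex, had 26 genes tested. At E18 against E8 retina 11 were higher, 6 lower and 9 not called (median 0.28), and in E18 retina against cornea 10 were higher, 12 lower and 4 not called (median -0.36). At E16 against E8 10 were higher, 10 lower and 6 not called, and at E18 against E16 6 were higher, 0 lower and 20 not called. The syntrophin SNTB1 had 18484 and 18551 normalized counts at E18, against 199 and 136 at E8, a log2 fold change of 6.80. The sarcoglycan SGCD rose (2.55) and the glypican GPC4 fell (-1.22). CD36, a receptor of thrombospondins, was called higher with 12.5 and 12.9 normalized counts at E18, against 0.586 and 0 at E8. As 0.586 is the value of 1 read in that E8 library, the CD36 call is not read as support. Against cornea, the syndecan SDC3 (4.07), the glycosyltransferase of dystroglycan LARGE (2.76) and the dystrobrevin DTNA (1.89) were higher in E18 retina. The epithelial syndecans SDC1 (-5.70) and SDC4 (-5.02) were lower. The muscle receptor MUSK was called lower as well, with 0 and 0 normalized counts in E18 retina, against 57.2 and 51.6 in cornea. MUSK thus had reads in cornea only, and its call is not read as support.

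The list of other basement membrane and microfibril genes had 44 tested. At E18 against E8 retina 18 were higher, 15 lower and 11 not called (median 0.11), and in E18 retina against cornea 9 were higher, 33 lower and 2 not called (median -3.97). At E16 against E8 15 were higher, 19 lower and 10 not called, and at E18 against E16 6 were higher, 2 lower and 36 not called. Collagen IV chains, the partners of laminin in basement membranes, were among the falls at E18 against E8 retina, with log2 fold changes of -4.12 ± 0.20 for COL4A6, -3.70 ± 0.17 for COL4A5 and -3.89 ± 0.58 for COL4A1. COL4A6 had 259 and 187 normalized counts at E18, against 3832 and 3882 at E8. COL4A1 had 112 and 22.7 at E18, libraries that stood far apart, against 908 and 644 at E8. The largest rises were SPARCL1, a relative of SPARC made by glia (6.79), the netrin NTN4 (5.43) and SPON2 (4.28). SPARCL1 was also the gene of this list most enriched in E18 retina over cornea (8.94), followed by SPOCK3 (4.56) and EGFLAM, which encodes pikachurin of the photoreceptor synapse (4.13). Elastin (ELN, -8.91), COL4A4 (-8.41) and ECM2 (-7.48) were the largest differences the other way.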

How the data were processed

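RNA of whole retina (E8, E16, E18) and whole cornea (E18) was sequenced by the authors in duplicate from stranded poly-dT libraries, a priming that over-represents 3′ ends. Reads were aligned by the authors with STAR 2.5.1b to galGal4, counted with featureCounts 1.5.0 and divided by DESeq2 1.6.2 size factors. The annotation release, the use of strand and the handling of reads that overlap several genes are not given in the sources used here. The deposited values are therefore a signal, read counts per gene over the library's size factor. Whole reads were recovered for 100% of values (tolerance 0.001).

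Genes were kept by filterByExpr of edgeR 4.0.16 (minimum count 10), and log2(normalized count + 1) was fitted with limma 3.58.1 in R 4.3.3 (1 term per group, mean-variance trend), with Benjamini-Hochberg adjustment over all 13194 genes and calls at 0.05. The edgeR quasi-likelihood test and DESeq2 1.42.0 were run on recovered reads. On these reads edgeR called 8625 genes at E16 against E8, 2736 at E18 against E16, 8876 at E18 against E8 and 9456 for E18 retina against cornea. Scripts were tested on simulated data. The other alternatives were TMM scaling, the pseudocount, the filter, no trend, the 4 libraries compared alone, a replicate block, a 2-fold requirement and leaving out each library. Low-count ratios carry exact counting intervals, which cover counting error only.

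Members and lists were chosen with earlier results of these data known. Values per library were given for members among the 6 largest rises or 6 largest falls of a comparison (called, at least 10 RPM in the higher group, groups not overlapping) and for the 2 highest of each family, and other members were added after their values were seen. From each list of related genes the 3 largest rises and 3 largest falls at E18 against E8 and against cornea were named. A few genes are counted but not reported by name here. The 49 members all passed the filter, 8 of them with 10 reads in both libraries of cornea but not of E18 retina. Between ages, some low members likewise had 10 reads in both libraries of 1 age only. Chromosomes and alternative names came from RefSeq (GRCg7b).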

Additional observations from a re-analysis of the deposited data

How the results depend on the processing

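The settings tried covered tools, scalings, pseudocounts, filters and left-out libraries. Over these, the count of members called stayed within 1.5 times the reported one in 3 of the 4 comparisons. The share of all genes called moved with the setting too. With DESeq2, 69.4% of members were called at E16 against E8, beside 63.3% of all genes. At E18 against E8 it was 67.3%, beside 65.2%, and for E18 retina against E18 cornea 95.9%, beside 69.3%. At E18 against E16 the 10 calls became 20 of 45 members tested with only the 4 libraries compared (9 shared), beside 45.7% of all genes in that fit, 3 with at least a 2-fold change, and 0 to 4 on leaving out single libraries. In the fit with 0 calls, without E16 replicate 1, limma gave 15 members at an unadjusted p under 0.05. The share of all genes at that unadjusted threshold was not computed. The edgeR and DESeq2 tests, run on all 8 libraries, called 12 members each (24.5%), beside 20.7% and 23% of all genes. For single members the log2 fold change of LAMA4 at E16 against E8, -0.19, reversed to 0.59 without E8 replicate 2, and it was -0.96 without E8 replicate 1. The cause of these changes was not tested. The study lists a chicken 1 and a chicken 2 in every group. Whether retina and cornea of the same number at E18 came from 1 embryo is not stated. Correlations of replicate deviations between groups were -0.05 to 0.05, which cannot settle this with 2 libraries per group. A replicate block gave 35 members at E16 against E8, beside 63.8% of all genes, and 10 at E18 against E16, beside 17.1%. It gave 34 at E18 against E8, beside 65.9%, and 47 for E18 retina against cornea, beside 70.9%. Depth limits ITGB6, ITGB1BP2, LAMB3, LAMB4, FBLN2, FBLN5 and FBLN7, which had fewer than 50 reads in every retinal library.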
